A study of Homo sapiens with 6 samples.

Results

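The genes described here are 10 components of Notch signalling and of its neighbouring helix-loop-helix repressors, among 38126 gene IDs measured in each library: the ligand JAG1, the receptors NOTCH1, NOTCH2 and NOTCH3, the Notch-responsive repressors HES1 and HEY1, and the inhibitors ID1, ID2, ID3 and ID4. They were taken by name from a list drawn up for the pathway with earlier results of these data known, and all 10 were found in every library. RNA-seq was performed on HK-2 cells, an immortalised human line labelled as renal proximal tubular epithelium, after 24 h with phosphoramidon (n = 3) or without treatment (n = 3). Phosphoramidon blocks certain zinc-dependent peptidases, neprilysin among them. Both groups were kept without serum, in keratinocyte medium to which EGF and an extract of bovine pituitary were added, and treatment began near confluence. The labels give no dose and no vehicle, and the titles of the untreated libraries carry the unexplained letters CSE. HK-2 is a single line, and the labels do not say whether replicates came from separate cultures, so the p-values cover only library-to-library spread, possibly technical.

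Notch signalling passes between touching cells. A Jagged or Delta ligand on the sending cell pulls on a Notch receptor, which is then cut by an ADAM protease and by gamma-secretase, and the freed intracellular domain joins the DNA-binding protein RBPJ to switch on genes such as HES1 and HEY1, themselves transcriptional repressors. ID proteins carry a helix-loop-helix but no DNA-binding region, so they tie up E proteins and other partners and keep them off DNA, and many of them are induced by BMP signalling. In the developing kidney Notch takes part in forming the proximal nephron.

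Among the 10 genes JAG1 and NOTCH3 fell most and ID2 rose most. JAG1 was at 46.5% of its untreated level and NOTCH3 at 62.2%, HES1 fell to 80.9%, while ID2 was 1.77-fold and NOTCH1, NOTCH2 and ID1 were 1.13-fold to 1.21-fold higher. Changes are ratios on the scale log2(FPKM + 0.1) after scaling between libraries, where FPKM are fragments per kilobase of gene, scaled to the library's assigned fragments. Of the 9 genes abundant enough to test, 4 rose and 4 fell at a limma adjusted p below 0.05 and HEY1 did not pass, while ID4 was too low to test. The background is high: 33.6% of all 16175 tested genes passed, 2531 higher and 2901 lower, and in the values as deposited without scaling the split was 3647 higher and 2169 lower. Past 1.5-fold by limma's treat test were 2 of the 9, JAG1 and ID2, against 0.804% of all tested genes. In deposited FPKM 7 of the 9 showed no overlap between the groups, against 49.7% of all tested genes. Overlap was read before scaling between libraries, and the calls were made after it. Because the genes were chosen with earlier results of these data known, these counts are no test of the set.

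**Figure D1:**
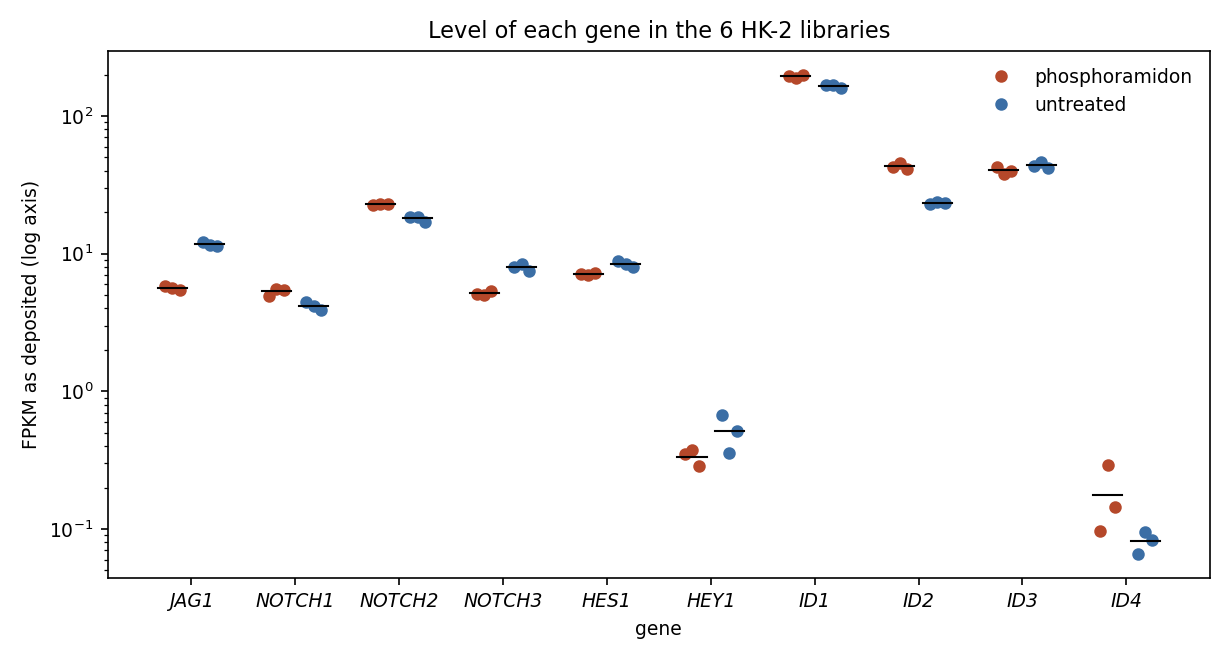
Deposited FPKM of the 10 genes (log axis) in 3 phosphoramidon libraries (red, left) and 3 untreated libraries (blue, right), with points for libraries and bars for group means. JAG1 and NOTCH3 lie lower and ID2 higher in every phosphoramidon library, and the ID3 and HEY1 groups overlap.

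**Figure D2:**
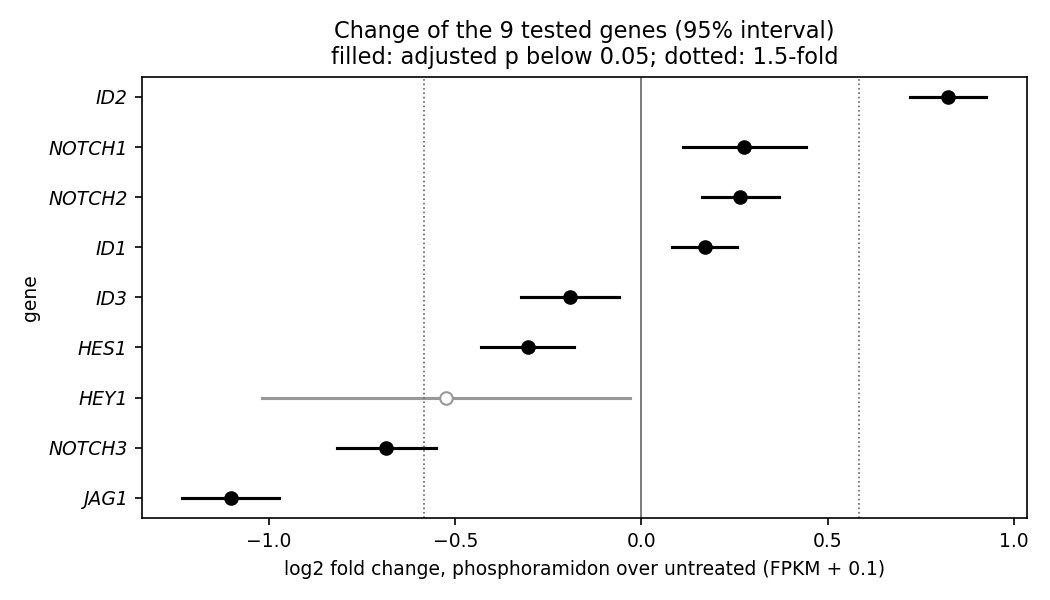
Log2 fold change of phosphoramidon over untreated for the 9 tested genes with 95% confidence intervals from limma, where filled points passed an adjusted p of 0.05 and dotted lines mark 1.5-fold. The values run from -1.10 for JAG1 to 0.82 for ID2.

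The libraries held 18690100 to 24919568 assigned fragments with phosphoramidon and 23493829 to 24815378 without treatment, as recovered from the spacing of the FPKM values. The first principal component carried 55.8% of the variance and parted the groups. Epithelial markers summed to 115 to 119 FPKM in phosphoramidon and 143 to 155 FPKM in untreated libraries, most of it from KRT8, KRT18 and EPCAM. Of 5 tested markers 2, KRT8 and KRT18, were lower. CDH1 was low, averaging 0.501 FPKM with phosphoramidon and 0.391 FPKM in untreated cells. The defining transporters of the proximal tubule were near 0. The 8 markers of the list summed to 0.730 to 0.952 FPKM with phosphoramidon and 1.12 to 1.55 FPKM without, and 2 of 4 tested markers, SLC34A1 (log2 fold change -0.80, limma adjusted p = 0.0169) and GGT1 (-0.62, adjusted p = 0.0220), were lower. SLC22A6 was at 0 in every library, and LRP2 averaged 0.00211 FPKM with phosphoramidon and 0.00176 FPKM in untreated cells. The label therefore rests on the identity of the line and not on these transcripts. Fibroblast and mesangial markers summed to 4.19 to 4.67 FPKM with phosphoramidon and 10.2 to 11.7 FPKM without, with 3 of 3 tested markers lower, led by COL1A1, and with COL3A1 at 0 in every library. Endothelial markers summed to 0.132 to 0.138 FPKM with phosphoramidon and 0.0796 to 0.130 FPKM without, leukocyte markers to 0.567 to 0.702 FPKM with phosphoramidon and 0.581 to 0.874 FPKM without, and distal tubule and podocyte markers to 0.0472 to 0.0629 FPKM with phosphoramidon and 0.0379 to 0.0533 FPKM without. None of the 2 tested genes of these 3 lists was called. The part of the keratin, proximal tubule and fibroblast marker shifts in the results was not tested. In bulk RNA, fewer cells expressing a gene and less RNA per cell cannot be told apart.

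Because FPKM are per length, levels can be set beside each other between genes, though they rest on gene lengths from an annotation that is not stated. In untreated cells ID1 was highest at a mean of 165 FPKM, followed by ID3 (43.9), ID2 (23.2), NOTCH2 (18.0), JAG1 (11.7), HES1 (8.41), NOTCH3 (7.98), NOTCH1 (4.17), HEY1 (0.514) and ID4 (0.0816). Only HES1 and NOTCH3 had overlapping ranges among these neighbours. In phosphoramidon cells the order of mean FPKM was ID1 (195), ID2 (43.3), ID3 (40.3), NOTCH2 (22.8), HES1 (7.12), JAG1 (5.65), NOTCH1 (5.33), NOTCH3 (5.17), HEY1 (0.336) and ID4 (0.177). There the ranges of ID2 and ID3 overlapped, and so did those of JAG1 with NOTCH1, of NOTCH1 with NOTCH3 and of HEY1 with ID4.

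JAG1, the Jagged ligand mutated in Alagille syndrome, fell most of the 10 (ENSG00000101384, chromosome 20, 10637684 to 10673999 on GRCh38, minus strand). Its level was 5.81, 5.67 and 5.46 FPKM in phosphoramidon replicates 1 to 3, against 12.2, 11.5 and 11.3 FPKM in untreated replicates 1 to 3. Every phosphoramidon library lay far below every untreated one, and the spread within each group was small. The log2 fold change was -1.10 ± 0.06 (SE), with a 95% interval from -1.23 to -0.97 and a limma adjusted p of 7.53e-06. By size of change JAG1 ranked 225 among the 16175 tested genes. The fall exceeded 1.5-fold (limma treat adjusted p = 0.00201), and between 994 and 2666 fragments stood behind each value. An antisense transcript, AL050403.2, shares 79 exonic bases with JAG1 but held 1 fragment in all libraries together.

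Of the receptors, NOTCH2 was the most abundant and rose slightly, NOTCH1 rose slightly and NOTCH3 fell. NOTCH3, the receptor best known from vascular smooth muscle (ENSG00000074181, chromosome 19, 15159038 to 15200981, minus strand), had 5.10, 5.02 and 5.39 FPKM with phosphoramidon and 8.05, 8.43 and 7.46 FPKM without. The groups were well apart. Its log2 fold change was -0.69 ± 0.06 (SE), limma adjusted p = 8.11e-05, and it was not past 1.5-fold by the treat test, the interval running from -0.82 to -0.55.

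NOTCH2, the receptor most tied to proximal nephron formation in the mouse (ENSG00000134250, chromosome 1, 119911553 to 120069626, minus strand), had 22.5, 23.1 and 22.8 FPKM in phosphoramidon libraries and 18.5, 18.5 and 17.1 FPKM in untreated libraries. All phosphoramidon values were above all untreated ones, by a modest margin (log2 fold change 0.27 ± 0.04 (SE), limma adjusted p = 0.00247). NOTCH2 has near-identical partial copies, the NOTCH2NL genes, and how reads shared with them were counted is not given in the sources used here. The 3 NOTCH2NL genes matched (NOTCH2NLA, NOTCH2NLC and NOTCH2NLR) together held 1 to 1.59% as many fragments as NOTCH2 in any library.

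NOTCH1 (ENSG00000148400, chromosome 9, 136494433 to 136545786, minus strand) had 4.93, 5.56 and 5.49 FPKM with phosphoramidon and 4.46, 4.13 and 3.92 FPKM in untreated cells. The groups did not overlap, though phosphoramidon replicate 1 came near the highest untreated library. The log2 fold change of 0.28 ± 0.07 (SE) passed at a limma adjusted p of 0.0188, but the call was lost without untreated replicate 2 (0.26), untreated replicate 3 (0.24), phosphoramidon replicate 2 (0.24) or phosphoramidon replicate 3 (0.26).

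The receptors' relative abundance can be read within each library, free of scaling between libraries. NOTCH3 made up 15.7, 14.9 and 16.0% of the summed FPKM of NOTCH1, NOTCH2 and NOTCH3 with phosphoramidon, against 25.9, 27.2 and 26.2% in untreated cells. The share of NOTCH2 was 69.2, 68.6 and 67.7% with phosphoramidon and 59.7, 59.5 and 60.01% without, and that of NOTCH1 averaged 16.0 ± 0.722% with phosphoramidon and 13.8 ± 0.521% without (SD, n = 3). The ratio of NOTCH2 to NOTCH3 thus lay between 4.23 and 4.60 in phosphoramidon libraries and between 2.19 and 2.30 in untreated ones. The sum of the 3 receptors moved less, at 33.3 ± 0.666 FPKM with phosphoramidon and 30.2 ± 1.498 FPKM in untreated cells as deposited (SD, n = 3). Values for the fits were divided by scaling factors of 1.01 to 1.04 with phosphoramidon and 0.964 to 0.990 without. Scaling would therefore narrow this gap. With the ligand, the ratio of JAG1 to NOTCH2 was 0.258, 0.245 and 0.240 with phosphoramidon, against 0.658, 0.620 and 0.663 without.

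**Figure D3:**
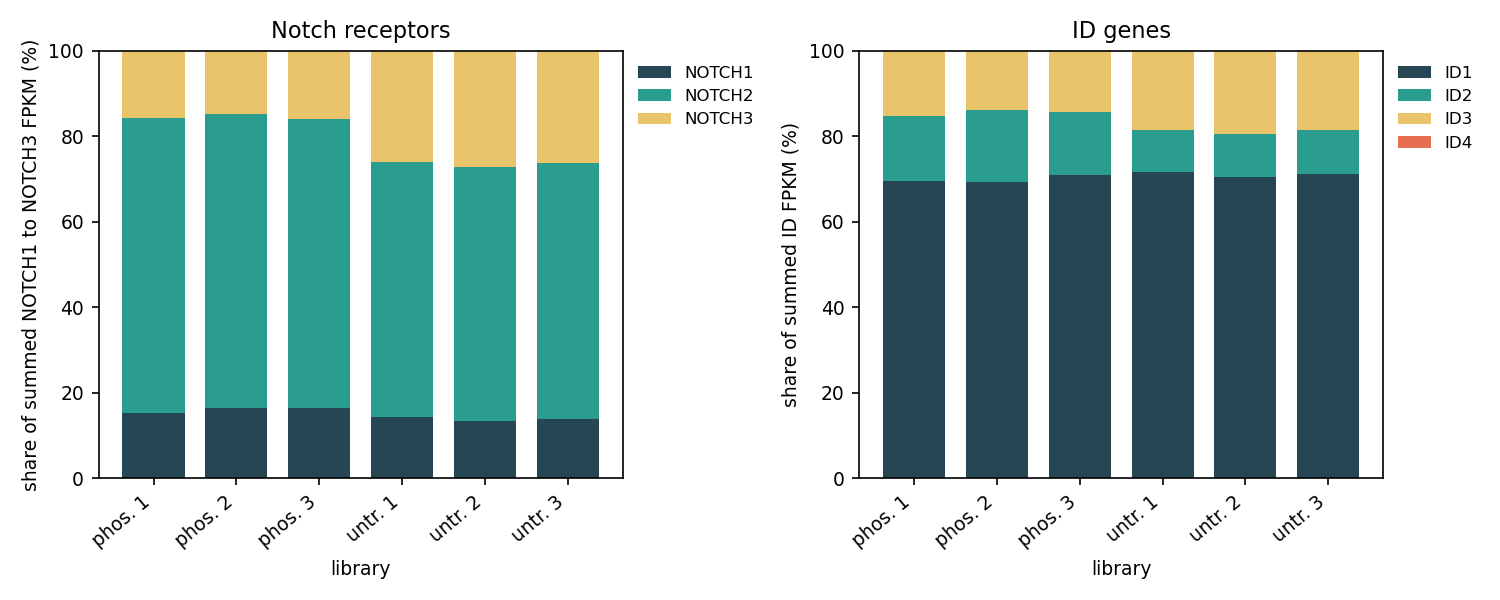
Share of each Notch receptor in the summed FPKM of NOTCH1, NOTCH2 and NOTCH3 (left) and of each ID gene in the summed ID FPKM (right), in percent, with a bar for each library and phosphoramidon libraries to the left of untreated ones. NOTCH3 takes 14.9 to 16.0% with phosphoramidon and 25.9 to 27.2% without, and ID2 takes 14.7 to 16.6% with and 9.81 to 10.3% without.

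HES1 and HEY1 are repressors that answer to the Notch intracellular domain. HES1 (ENSG00000114315, chromosome 3, 194136145 to 194138732, plus strand) had 7.17, 6.98 and 7.22 FPKM in phosphoramidon libraries, against 8.83, 8.45 and 7.97 FPKM in untreated libraries. The groups were apart, by less than the spread among the untreated libraries. The log2 fold change was -0.31 ± 0.06 (SE), with limma adjusted p = 0.00341, on 276 to 427 fragments a library.

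The region before the HES1 start is shown because it holds the letters RBPJ is known to bind, beside the regions before JAG1 and ID1, which lack them. Sequences are from RefSeq (GRCh38.p14), read 5′ to 3′ on the gene's strand over the 250 bases before the start, leaving out bases that GENCODE 29 annotates as exon. Capitals mark TGGGAA, the core of the RBPJ motif, on either strand.
HES1: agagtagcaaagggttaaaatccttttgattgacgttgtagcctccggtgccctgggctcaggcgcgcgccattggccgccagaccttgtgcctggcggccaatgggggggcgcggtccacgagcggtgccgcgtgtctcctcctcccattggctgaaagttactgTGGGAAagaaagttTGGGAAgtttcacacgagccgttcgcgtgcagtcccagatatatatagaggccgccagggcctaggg
JAG1: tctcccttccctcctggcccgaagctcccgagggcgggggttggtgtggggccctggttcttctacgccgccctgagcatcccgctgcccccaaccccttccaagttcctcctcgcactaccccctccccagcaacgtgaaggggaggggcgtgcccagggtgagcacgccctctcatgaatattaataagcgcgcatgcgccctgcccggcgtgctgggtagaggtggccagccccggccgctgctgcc
ID1: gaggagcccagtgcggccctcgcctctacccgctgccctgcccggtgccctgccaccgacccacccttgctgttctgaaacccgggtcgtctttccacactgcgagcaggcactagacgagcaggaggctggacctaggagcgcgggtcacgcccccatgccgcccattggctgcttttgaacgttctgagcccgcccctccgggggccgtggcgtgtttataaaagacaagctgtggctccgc
These run over chr3:194135898-194136144 (plus strand), chr20:10674000-10674249 (minus strand) and chr20:31605039-31605282 (plus strand). TGGGAA occurred 2 times before HES1, starting 84 and 70 bases before the start, and in none of the windows of JAG1, NOTCH1, NOTCH2, NOTCH3, ID1, ID2, ID3 or ID4. Of 35116 promoter windows of 250 bases, 20.8% held it. The N-box CACNAG, to which HES proteins bind, occurred 3 times before HES1 (165, 132 and 58 bases before the start) and 1 time each before NOTCH3 and ID1, and 32% of all windows held it. The E-box CANNTG, bound by E proteins, occurred 1 time each before ID2 and ID4, against 61.8% of all windows. The GC-rich element GGCGCC, bound by BMP-activated SMADs, occurred 1 time before NOTCH1, against 16.4% of all windows. HEY1 had no promoter sequence available and was not searched. Both strands were searched over all 250 bases, no matches overlapped, and a match is a description of letters only. Of these bases GENCODE 29 annotates 229 before ID2, 250 before ID3 and 126 before NOTCH1 as exon. The ID2 E-box and the NOTCH1 GGCGCC, 205 and 207 bases before the start, lie in such exonic bases.

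HEY1 (ENSG00000164683, chromosome 8, 79764010 to 79767863, minus strand) had 0.348, 0.373 and 0.285 FPKM with phosphoramidon and 0.673, 0.357 and 0.512 FPKM without. Untreated replicate 2 lay inside the phosphoramidon range. With 18 to 51 fragments a library, a counting error of 23.6% at the lowest, its log2 fold change of -0.53 ± 0.22 (SE) missed the threshold (limma adjusted p = 0.0951), and was -0.20 with a pseudocount of 1. Without untreated replicate 2 it was -0.73 and passed at a limma adjusted p of 0.0298.

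ID1 was the most abundant of the 10 genes and above 99.2% of tested genes in untreated cells (ENSG00000125968, chromosome 20, 31605283 to 31606515, plus strand). It had 196, 189.9 and 199.6 FPKM with phosphoramidon and 168, 168 and 160.4 FPKM without. The groups did not overlap, and the gap was small against the level. The log2 fold change was 0.17 ± 0.04 (SE), limma adjusted p = 0.0101.

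ID2, whose loss in mice disturbs lymphoid and mammary development, rose most of the 10 (ENSG00000115738, chromosome 2, 8678845 to 8684453, plus strand). Its level was 43.0, 45.5 and 41.5 FPKM in phosphoramidon cells, against 23.0, 23.6 and 23.2 FPKM in untreated cells. All phosphoramidon libraries were close to each other and far above the tightly grouped untreated libraries. The log2 fold change was 0.82 ± 0.05 (SE), with a 95% interval from 0.72 to 0.93 and limma adjusted p = 1.05e-05. Its treat call against 1.5-fold was near the threshold (adjusted p = 0.0394) and was lost with a pseudocount of 1, without a filter and in each fit that left out a library other than phosphoramidon replicate 3 (treat adjusted p = 0.103 to 0.159). The divergent transcript ID2-AS1 shares 38 exonic bases with ID2 on the other strand and held 8 to 42 fragments a library.

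ID3 (ENSG00000117318, chromosome 1, 23557918 to 23559794, minus strand) had 42.9, 38.0 and 40.1 FPKM with phosphoramidon and 43.5, 46.4 and 41.6 FPKM in untreated cells. The groups overlapped. After scaling, the log2 fold change was -0.19 ± 0.06 (SE) with limma adjusted p = 0.0325. In the values as deposited it was -0.12 and did not pass (limma adjusted p = 0.125), nor did it without untreated replicate 1 (-0.18), untreated replicate 2 (-0.16), phosphoramidon replicate 2 (-0.15) or phosphoramidon replicate 3 (-0.18). ID4 (ENSG00000172201, chromosome 6, 19837386 to 19840684, plus strand) had 0.0967, 0.290 and 0.145 FPKM with phosphoramidon and 0.0659, 0.0956 and 0.0832 FPKM without. These stand for 7, 28 and 11 fragments with phosphoramidon against 6, 9 and 8 without, and the gene had fewer than 3 libraries with 10 fragments, so it was not tested. The phosphoramidon values were the higher ones, with almost no gap at the nearest pair.

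Within the ID family ID2 gained share and ID3 lost it. ID2 made up 15.2, 16.6 and 14.7% of summed ID FPKM with phosphoramidon and 9.81, 9.91 and 10.3% without. ID3 made up 15.2, 13.9 and 14.3% with phosphoramidon, against 18.6, 19.5 and 18.5% in untreated cells. ID1 kept the largest share, 70.0 ± 0.854% with phosphoramidon and 71.1 ± 0.515% without (SD, n = 3). The ratio of ID3 to ID2 was 0.834 to 0.998 in phosphoramidon libraries and 1.80 to 1.97 in untreated ones. Summed over the family, ID transcripts came to 279 ± 4.77 FPKM with phosphoramidon and 232 ± 6.51 FPKM in untreated cells as deposited (SD, n = 3). Scaling between libraries would narrow this gap, as for the receptors.

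**Figure D4:**
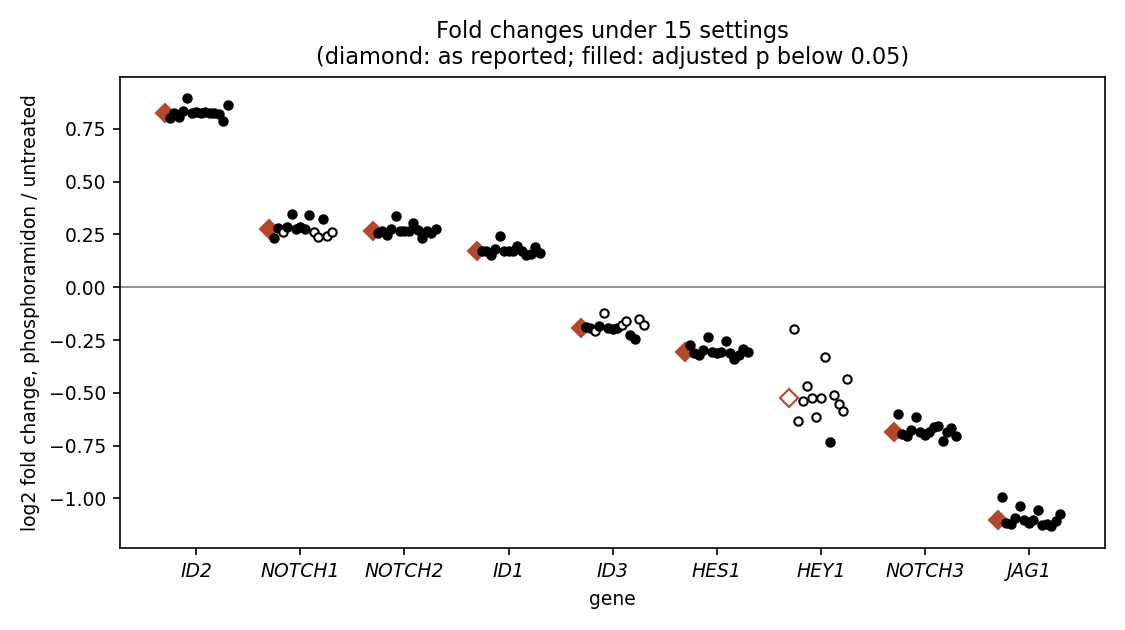
Log2 fold change of each of the 9 tested genes under the reported setting (diamond) and up to 14 alternatives (circles), filled where the limma adjusted p was below 0.05. No gene changed sign, JAG1, NOTCH2, NOTCH3, HES1, ID1 and ID2 passed throughout, and NOTCH1, ID3 and HEY1 crossed the threshold in some alternatives.

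The other components of the pathway were followed in 12 lists of 150 genes, of which 119 were tested. In these, 27 genes were higher and 26 lower, or 44.5% against 33.6% over all tested genes, and the median log2 fold change was 0.03 against 0.01. The 8 called members described above are included in these counts, and the lists, too, were chosen with earlier results known. Values in parentheses are log2 fold changes with adjusted p from limma unless marked as FPKM, and ± is the SD over 3 libraries. For genes near or below 1 FPKM the size depends on the pseudocount: with 1 in place of 0.1 the log2 fold change was 0.47 for NRARP, 0.50 for HES6, -0.43 for NEURL3, -0.27 for DTX1, -0.25 for ACVRL1 and 0.25 for BMP8A, each still passing.

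Of the ligand list 1 of 9 tested members was higher and 5 lower, with a median of -0.27. That is 66.7% called, against 33.6% over all tested genes. Besides JAG1, the microfibril protein MFAP2, a noncanonical Notch binder, had 11.5, 10.8 and 11.4 FPKM with phosphoramidon against 16.6, 15.4 and 15.3 FPKM without (-0.56, adjusted p = 1.55e-04). All treated values were lower. CNTN6, a neural contactin reported to bind Notch, had 0.175, 0.0874 and 0.186 FPKM with phosphoramidon against 0.386, 0.486 and 0.541 FPKM without (-1.26, adjusted p = 0.00211), and MFAP5 averaged 0.139 ± 0.0315 FPKM with phosphoramidon and 0.326 ± 0.0992 FPKM without (-0.86, adjusted p = 0.0117). CNTN6 had 12 to 74 fragments a library and MFAP5 9 to 41, so the sizes depend on the processing. Accordingly, the log2 fold change of CNTN6 was -0.37 with a pseudocount of 1 and -1.72 with one of 0.01. Likewise, the log2 fold change of MFAP5 was -0.23 and -1.22 at these pseudocounts, and it lost its call without the filter on low genes. JAG2, the other Jagged ligand, averaged 1.96 ± 0.169 FPKM with phosphoramidon and 2.26 ± 0.123 FPKM without (-0.27, adjusted p = 0.0463). Its call was kept without phosphoramidon replicate 3 (-0.33) and lost without phosphoramidon replicate 1 (-0.24) or 2 (-0.24) or untreated replicate 1 (-0.25), 2 (-0.25) or 3 (-0.31). The Delta ligand DLL4 was the member that rose, on 11, 18 and 18 fragments with phosphoramidon against 3, 0 and 4 without, so that its fitted value depends on the pseudocount and is not given. DLL3 (0.863 FPKM with phosphoramidon, 0.913 FPKM without), DLK2 (2.004 FPKM with phosphoramidon, 2 FPKM without) and CNTN1 (0.189 FPKM with phosphoramidon, 0.169 FPKM without) did not pass, and DLL1, DLK1 and DNER were too low to test. NOTCH4 was too low as well, so the 3 receptors above are all that could be tested.

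Of the subunits of gamma-secretase, the protease that frees the Notch intracellular domain, those described here did not pass. NCSTN averaged 40.5 ± 1.222 FPKM with phosphoramidon and 35.3 ± 1.71 FPKM without (SD, n = 3), with an adjusted p of 0.0939. It passed in the values as deposited, with a stricter filter of 50 fragments and with limma's voom on recovered fragments. APH1A passed in the values as deposited. PSENEN averaged 5.35 ± 0.533 FPKM with phosphoramidon and 6.03 ± 0.514 FPKM without (adjusted p = 0.0746). It passed without phosphoramidon replicate 1 (-0.32) and with the filter of 50 fragments. PSEN2 averaged 4.33 ± 0.283 FPKM with phosphoramidon and 3.95 ± 0.246 FPKM without. Of the glycosyltransferases that tune which ligand a receptor answers, 3 of 8 were higher and 0 lower. That is 37.5% called, against 33.6% over all tested genes. LFNG, lunatic fringe, had 20.8, 19.0 and 21.7 FPKM with phosphoramidon against 15.7, 16.8 and 14.7 FPKM without (0.31, adjusted p = 0.00611). The xylosyltransferases GXYLT1 (0.37, adjusted p = 0.00128) and XXYLT1 (0.35, adjusted p = 0.00314) were the others.

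In trafficking and turnover, 2 of 19 members were higher and 5 lower, or 36.8% against 33.6% over all tested genes. The Deltex-family genes DTX3 (-0.50, adjusted p = 8.1e-04) and DTX4 (-0.37, adjusted p = 0.00389) fell, and so did NEURL3, an E3 ligase of the Neuralized family, at 0.515, 0.772 and 1.09 FPKM in phosphoramidon against 1.28, 1.34 and 1.41 FPKM in untreated libraries (-0.81). The NEURL3 call was lost without phosphoramidon replicate 2 (-0.82) or untreated replicate 1 (-0.82), 2 (-0.82) or 3 (-0.77). Named after their values were seen, DTX1 (-0.78) and NUMBL (-0.22) were the other members that fell, and FBXW7 (0.23) and DTX3L (0.14) those that rose. DTX1 did not pass without untreated replicate 1 (-0.68) or 3 (-0.77) or phosphoramidon replicate 3 (-0.55). FBXW7 passed in the fit without untreated replicate 3 but in no other that left out a library (0.19 to 0.25), and DTX3L did not pass without untreated replicate 2 (0.12) or 3 (0.15) or phosphoramidon replicate 2 (0.12) or 3 (0.14). The list's count of higher members was therefore 0 to 2, and that of lower members 3 to 5, when a library was left out.

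Around RBPJ 4 of 20 tested members were higher and 4 lower, or 40% against 33.6% over all tested genes. In the values as deposited 9 were higher. MAML2, a Mastermind coactivator, had 1.63, 1.49 and 1.46 FPKM with phosphoramidon against 2.12, 2.14 and 2.06 FPKM without (-0.51, adjusted p = 0.002996). It was lower in all phosphoramidon libraries. KAT2B, an acetyltransferase, averaged 1.47 ± 0.122 FPKM with phosphoramidon and 1.001 ± 0.0841 FPKM without (0.45, adjusted p = 0.0203), a call lost without untreated replicate 2 (0.38) or phosphoramidon replicate 1 (0.38). RBPJ itself had 14.2, 15.01 and 14.8 FPKM with phosphoramidon against 12.1, 12.3 and 13.2 FPKM without (0.16, adjusted p = 0.0340), and passed in the fit without untreated replicate 3 but not without untreated replicate 1 (0.15) or 2 (0.13) or phosphoramidon replicate 1 (0.17), 2 (0.14) or 3 (0.16). Named after their values were seen, MAML1 (0.31) and EP300 (0.30) rose, and HDAC1 (-0.26) and L3MBTL3 (-0.40) fell. L3MBTL3 did not pass without untreated replicate 1 (-0.40) or 3 (-0.34) or phosphoramidon replicate 2 (-0.32) or 3 (-0.39). The list held 2 higher members without untreated replicate 2 or phosphoramidon replicate 1.

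Among HES, HEY and direct Notch target genes, 2 of 9 were higher and 1, HES1, lower, or 33.3% against 33.6% over all tested genes. In the values as deposited 4 were higher. NRARP, a Notch target whose product damps the pathway, had 1.82, 1.53 and 1.78 FPKM in phosphoramidon libraries against 0.693, 0.872 and 1.16 FPKM in untreated libraries (0.80, adjusted p = 0.00743). Every phosphoramidon value was above every untreated value, the opposite direction to HES1. HES6, which in the mouse opposes Hes1, rose too, at 0.794, 1.01 and 1.20 FPKM with phosphoramidon against 0.261, 0.463 and 0.433 FPKM without (1.13, on 12 to 49 fragments a library), and was named after its values were seen.

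Of the E proteins, which ID proteins bind, and their partner factors, 0 of 7 were higher and 2 lower. That is 28.6% called, against 33.6% over all tested genes. TCF3, which encodes the E proteins E12 and E47, had 14.2, 14.1 and 13.6 FPKM with phosphoramidon and 16.6, 15.6 and 15.6 FPKM without (-0.26, adjusted p = 0.00476). TCF21, a class-II factor of kidney mesenchyme and podocytes, had 1.46, 1.38 and 1.44 FPKM with phosphoramidon against 3.49, 3.37 and 3.83 FPKM without (-1.33, adjusted p = 2.37e-05). Both genes were lower in all phosphoramidon libraries.

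BMP signalling induces ID transcription in many cells. Of the BMP ligands 4 of 8 tested were higher and 1 lower, a median of 0.42. That is 62.5% called, against 33.6% over all tested genes. With a stricter filter of 50 fragments, or with no filter, 2 were called higher and 0 lower. BMP2 had 15.1, 14.7 and 14.5 FPKM in phosphoramidon cells against 8.91, 10.8 and 9.73 FPKM in untreated cells (0.52, adjusted p = 4.75e-04), and BMP8B had 10.5, 9.93 and 8.98 FPKM with phosphoramidon against 5.08, 5.06 and 4.94 FPKM without (0.88, adjusted p = 5.72e-05). Neither gene's groups overlapped. BMP8B has a near-identical copy, BMP8A (0.77, named after its value was seen, and not passing without phosphoramidon replicate 2, 0.74), and reads may be split between them. BMP6 also rose, on 24, 16 and 25 fragments with phosphoramidon against 1, 3 and 7 without, and GDF5 fell, on 3, 8 and 3 fragments with phosphoramidon against 19, 19 and 14 without. BMP4 (-0.28), GDF6 (0.32) and GDF7 (0.07) did not pass. These genes, too, were picked once values were known.

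Of the secreted BMP antagonists and feedback genes 3 of 12 were higher and 3 lower, or 50% against 33.6% over all tested genes. GREM1, gremlin 1, which binds BMP2, had 25.9, 24.8 and 25.1 FPKM with phosphoramidon and 34.4, 35.5 and 34.9 FPKM without (-0.54, adjusted p = 4.25e-05). CHRDL1, a chordin-like BMP antagonist, had 54.1, 52.7 and 54.5 FPKM with phosphoramidon against 65.8, 68.7 and 68.3 FPKM without (-0.40, adjusted p = 9.78e-05). Both fell in every library. The pseudoreceptor BAMBI rose to 2.33 ± 0.342 FPKM, against 1.63 ± 0.0408 FPKM in untreated cells (SD, n = 3; 0.41, adjusted p = 0.0258), a call kept without phosphoramidon replicate 3 and lost without phosphoramidon replicate 1 (0.29) or 2 (0.43) or untreated replicate 1 (0.41), 2 (0.41) or 3 (0.41). TWSG1 (0.30), SMURF2 (0.18) and NBL1 (-0.27), the other members called, were named after their values were seen. SMURF2 did not pass without untreated replicate 2 (0.14) or phosphoramidon replicate 1 (0.16) or 2 (0.16). NBL1 did not pass as deposited (-0.20) or without untreated replicate 1 (-0.22) or 2 (-0.23) or phosphoramidon replicate 1 (-0.25) or 2 (-0.27). The list held 1 higher member without untreated replicate 2 or phosphoramidon replicate 1 or 2.

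Of the BMP receptors and SMADs 3 of 13 were higher and 3 lower, or 46.2% against 33.6% over all tested genes. SMAD9, a BMP-responsive SMAD, had 2.45, 2.50 and 2.80 FPKM with phosphoramidon and 1.67, 1.76 and 1.92 FPKM without (0.44, adjusted p = 0.00564). ENG, the coreceptor endoglin, had 2.04, 2.30 and 1.79 FPKM with phosphoramidon against 3.02, 2.74 and 2.75 FPKM without (-0.53, adjusted p = 0.00592). The groups of both genes stood apart. ACVRL1 averaged 0.421 ± 0.0282 FPKM with phosphoramidon and 0.666 ± 0.127 FPKM without (-0.60, adjusted p = 0.0240), a call lost without untreated replicate 1 (-0.51) or 2 (-0.55) or phosphoramidon replicate 2 (-0.56) or 3 (-0.60). SMAD5 averaged 9.34 ± 0.468 FPKM with phosphoramidon and 7.84 ± 0.214 FPKM without (0.18, adjusted p = 0.0241) and lost its call without untreated replicate 1 (0.17) or 2 (0.18) or phosphoramidon replicate 1 (0.18) or 3 (0.15). SMAD1 averaged 2.37 ± 0.119 FPKM with phosphoramidon and 2.73 ± 0.118 FPKM without (-0.26, adjusted p = 0.0355) and lost its call in each of the 6 fits without a library (-0.30 to -0.21). SMAD4, the shared partner, averaged 4.35 ± 0.183 FPKM with phosphoramidon and 4.04 ± 0.0654 FPKM without and did not pass (0.03, adjusted p = 0.689), and BMPR1A (0.18), the other member called, was named after its value was seen and did not pass without untreated replicate 2 (0.16) or 3 (0.18) or phosphoramidon replicate 1 (0.20) or 2 (0.14). With a library left out the list held 1 to 2 higher and 1 to 2 lower members.

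**Figure D5:**
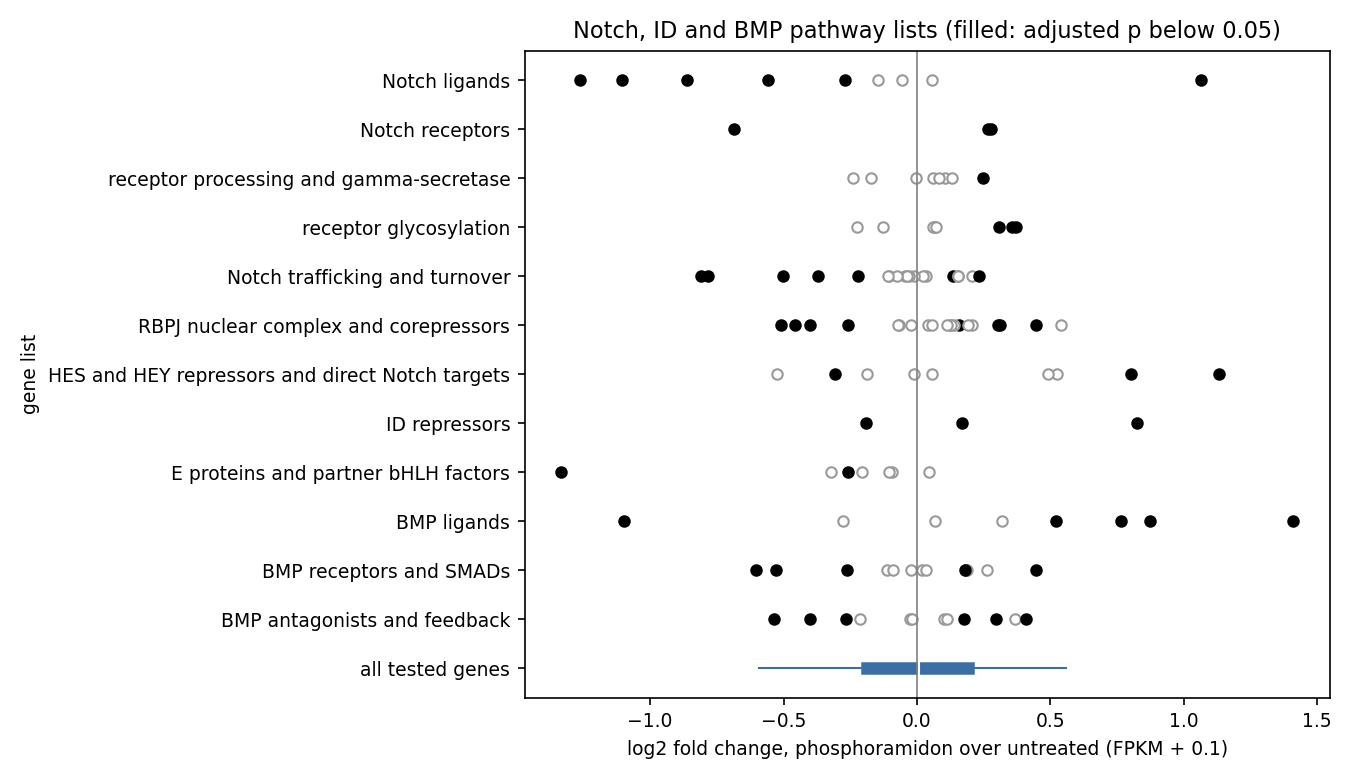
Log2 fold change of phosphoramidon over untreated for each tested gene of the 12 lists, filled where limma's adjusted p was below 0.05, with the middle 50% (thick) and 90% (thin) of all tested genes at the bottom. Among the Notch ligands CNTN6 lies at -1.26 and JAG1 at -1.10, a pair whose order turns with a pseudocount of 1. BMP ligands lie mostly to the right of 0, with a median of 0.42 that includes genes with few fragments.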

How the data were processed

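The deposited values are FPKM per gene, as found from the values in the authors' files. GRCh38 is the build listed in the submitters' processing notes, beside the tools featureCounts 1.6.0, HISAT2 2.1.0 and Trimmomatic 0.38, whose roles are unstated. Which annotation was used, and whether strand was, is not given in the sources used here. Multiplied by merged exon length (GENCODE 29), values fell on whole steps for 79.2% of genes above 0 (tolerance 0.05 fragments), which gave each library's total. For the others, among them 8 of the 10 members (not JAG1 and ID1), a length giving whole fragments was searched, so their fragment numbers rest on it.

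limma 3.58.1 (R 4.3.3) was run on log2(FPKM + 0.1) after division by TMM factors (30% of M and 5% of A values trimmed) from recovered fragments. Genes with 10 fragments in at least 3 libraries were tested with group as the only term, a trended robust prior and Benjamini-Hochberg adjustment over all of them (threshold 0.05). The procedure was also run on simulated data in which few genes changed, unlike these data. That run is no check on the calls made here. Means and SDs were taken over FPKM as deposited. Symbols matched 37892 of 38126 IDs.

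The members and lists were chosen with earlier results of these data known. Named list members were those called with the largest change (up to 3 a list, mean of 50 fragments or more), plus ligands, receptors, gamma-secretase subunits, RBPJ and SMAD1, SMAD4 and SMAD5. Alternatives changed the pseudocount, filter, scaling, test, replicate block and libraries. Some list members are not reported here.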

Additional observations from a re-analysis of the deposited data

How the results depend on the processing

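JAG1, NOTCH2, NOTCH3, HES1, ID1 and ID2 kept direction and call in all 14 alternatives. Of the 9 tested members, 1 was past 1.5-fold (JAG1) with a pseudocount of 1, without a filter and with the replicate block, and 1 to 2 with a library left out. Without a filter 1378 of all genes were called higher and 31 list genes were called, against 53, and with it NOTCH1 (adjusted p = 0.0935) and ID3 (0.074) lost their calls. The log2 fold change of DLK2, not called at -0.05, was 0.0133 in the values as deposited and 0.0755 without untreated replicate 1, within a range of -0.17 to 0.08 with a library left out. For these the cause was not tested. Same-numbered libraries had correlated deviations of 0.11, -0.02 and -0.01 in the replicate pairing check, against -0.10 to 0.12 for libraries of different number. No pairing by number showed, but with 3 libraries a group the check cannot exclude one. The block gave 2564 higher and 2890 lower calls and ended those of JAG2, SMAD1, FBXW7, SMURF2 and BMPR1A among the named genes. Depth limits genes with under 100 fragments in each library, among them HEY1, ID4, DLL4, BMP6, GDF5, CNTN6, MFAP5, HES6, NEURL3, DTX1, BMP8A and ACVRL1.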
